A study of Mus musculus with 12 samples.

Results

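The transglutaminases of mouse epidermis were examined as the 7 genes *Tgm1* to *Tgm7*. They were chosen by symbol, and all 7 were found among the 32793 rows of the gene count table. RNA-seq was performed on epidermis peeled with dispase from the back skin of 8 week old mice of mixed background. Per the labels, 6 animals were wild type and 6 were K14Kif3a-/-, in which Cre driven by the *K14* promoter removes exon 2 of *Kif3a* in epidermal cells. The K14-Cre line also carries a Cre-dependent R26R-eYFP reporter, and whether the wild type animals carried Cre is not given in the sources used here. The table holds 12 libraries named by animal, and these names did not match the labels that give genotype. No library was therefore assigned to a genotype and no difference between genotypes was tested. The spread between libraries includes genotype, which cannot be told apart from differences between animals.

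Transglutaminases are calcium-dependent enzymes that join a glutamine of one protein to a lysine of another. In the outermost living layers of the epidermis they cross-link loricrin, involucrin, small proline-rich proteins and other substrates under the plasma membrane, where the cornified envelope forms and gives the barrier its strength. Loss of TGM1 causes lamellar ichthyosis, loss of TGM5 causes acral peeling skin, and TGM3 also acts on trichohyalin in the hair follicle. The reaction runs through a cysteine in the active site, which is shared by the active members of the family and is missing from band 4.2, a relative in red blood cells.

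The coding sequence around this cysteine was read for each member, to show how alike the members are at the site that defines the family and how far apart their transcripts are for short reads. Each line gives 63 bases of the coding strand, 5′ to 3′, from GENCODE M21 transcripts on GRCm38, with the codon of the active-site cysteine in capitals.
Tgm1: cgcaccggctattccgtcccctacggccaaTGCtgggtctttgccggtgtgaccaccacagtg
Tgm5: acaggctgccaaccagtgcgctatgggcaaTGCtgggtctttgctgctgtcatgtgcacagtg
Tgm7: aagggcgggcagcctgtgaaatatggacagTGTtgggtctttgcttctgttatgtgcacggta
Tgm3: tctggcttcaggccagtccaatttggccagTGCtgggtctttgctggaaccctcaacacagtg
Tgm2: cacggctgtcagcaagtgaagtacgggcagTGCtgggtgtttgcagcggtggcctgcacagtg
Tgm4: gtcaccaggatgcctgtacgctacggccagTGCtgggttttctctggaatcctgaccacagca
Tgm6: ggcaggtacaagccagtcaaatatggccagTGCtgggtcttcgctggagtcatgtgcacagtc
The cysteine is residue 376 of 815 in *Tgm1* and residue 277 of 686 in *Tgm2*, and in *Tgm7* it is residue 185 of an annotated protein of only 616 residues. The codon is TGC in 6 members and TGT in *Tgm7*. Of the 63 bases, 47 were equal between *Tgm5* and *Tgm7*, 46 between *Tgm3* and *Tgm6*, and 33 between *Tgm2* and *Tgm4*. Over the whole proteins, identity was highest between *Tgm3* and *Tgm6* at 50.8%, followed by *Tgm5* and *Tgm7* at 50.0%, and lowest between *Tgm2* and *Tgm4* at 33.9%. No word of 51 bases, the length of the reads before trimming, was shared between the transcripts of any 2 members. An error-free read of that full length from one member therefore does not match another. Shorter words, as trimmed reads would give, were not compared.

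Of these genes, 5 lie on chromosome 2 of GRCm38. *Tgm5* (chr2:121046111-121085841, minus strand) and *Tgm7* (chr2:121093565-121109795, minus strand) are separated by 7.72 kb, and the gene for band 4.2, *Epb42* (chr2:121017891-121037072, minus strand), lies 9.04 kb from *Tgm5* with no annotated gene starting between them. *Tgm3* (chr2:130012349-130050399) and *Tgm6* (chr2:130112416-130154232) form another pair on the plus strand, 62.0 kb apart with no protein-coding gene starting between them. *Tgm2* (chr2:158116402-158146436, minus strand) stands alone on that chromosome. *Tgm1* (chr14:55700009-55713926, minus strand) and *Tgm4* (chr9:123034726-123067561, plus strand) are elsewhere.

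The libraries held between 17788775 and 37042852 estimated counts, and 14879 genes had a mean of at least 1 CPM (counts-per-million, a gene's counts scaled to its library's total), among them 6 of the 7 members. *Tgm4* fell below this mean, and *Tgm6* passed it only through its value in library 5. Libraries are numbered 1 to 12 in the order of the table, which serves only as a name. The column names place libraries 4, 7 and 12 in lane 4, library 1 in lane 6 and the other 8 in lane 5. Keratinocyte markers were high in every library, with summed levels of 22592 to 51767 CPM for 9 suprabasal genes and 7603 to 16915 CPM for 6 basal genes. Summed endothelial markers stayed between 0.165 and 2.57 CPM. Dermal fibroblast markers reached 291 CPM in library 4, skeletal muscle markers reached 594 CPM in library 12, and hair shaft and inner root sheath markers reached 6509 CPM in library 5. In such bulk samples, fewer cells of a type and less RNA per cell cannot be told apart.

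*Tgm1* and *Tgm5* made up most of the family. *Tgm1* encodes the membrane-bound enzyme of the granular layer. Its level was 60.8 CPM in the lowest library, 119 CPM in the median and 182 CPM in the highest. *Tgm5* encodes an enzyme of the upper epidermis that acts on loricrin and involucrin. It was 42.0 CPM in the lowest library, with a median of 85.9 and a highest value of 135 CPM. These 2 genes varied by 2.99-fold and 3.21-fold between the lowest and the highest library, beside a median of 2.89-fold over the 14710 genes with a mean of at least 1 CPM and no library at 0. Among genes with a median within 2-fold of their own, 66.2% varied less than *Tgm1* and 71.3% less than *Tgm5*. *Tgm7*, whose function is little known, was next with 6.35, 22.0 and 66.5 CPM as its lowest, median and highest values. *Tgm3*, the enzyme of the epidermis and the hair follicle that is active as a cleaved form, had 2.95, 19.1 and 57.0 CPM. *Tgm7* and *Tgm3* thus varied more, by 10.5-fold and 19.3-fold. By the same measure, 97.8% of like genes varied less than *Tgm7* and 99.0% less than *Tgm3*.

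**Figure D1:**
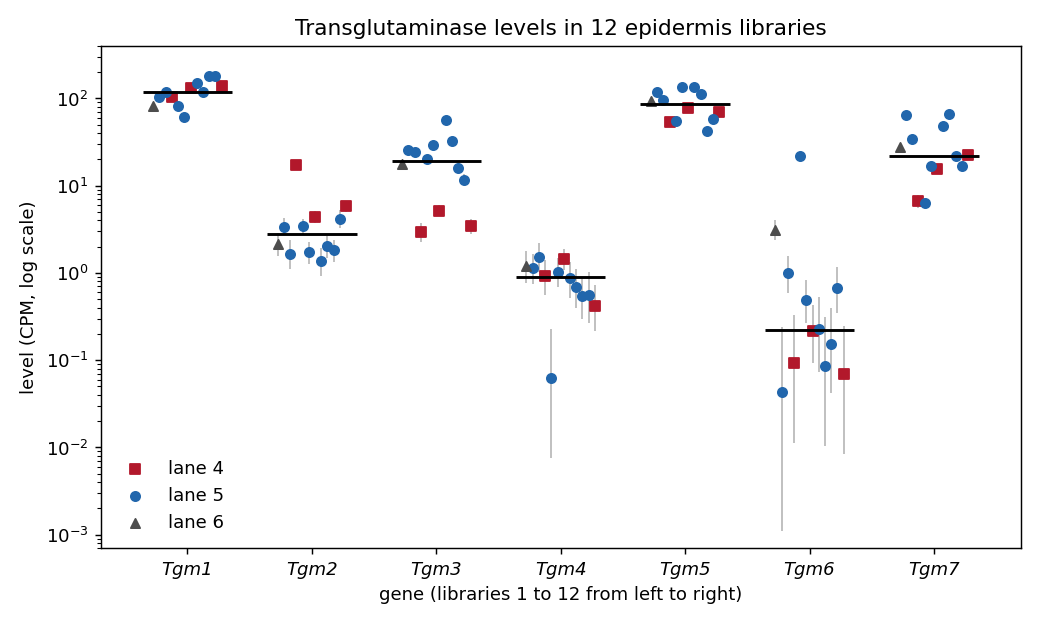
Level of each transglutaminase in CPM (log axis) in the 12 libraries, 1 point per library from library 1 on the left to library 12 on the right of each gene, with the marker giving the sequencing lane, the black line the median and the grey bars the 95% Poisson intervals of the counts. *Tgm1* and *Tgm5* lie highest with a narrower spread than the other members, *Tgm3* is low in the 3 libraries of lane 4, and *Tgm6* is below 1 CPM in 10 libraries and at 22.0 CPM in library 5.

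The other members were lower, and *Tgm4* and *Tgm6* came near the limit of detection in some libraries. *Tgm2* encodes the widely expressed tissue transglutaminase, best known from endothelium, fibroblasts and wounds. It ranged from 1.36 to 17.5 CPM with a median of 2.77 CPM and held 30 to 379 counts. *Tgm4* encodes the transglutaminase of the prostate. It had a median of 0.894 CPM, from 2 counts in library 5 to 53 counts in library 7. *Tgm6*, known from the nervous system, had a median of 0.222 CPM, and 7 libraries held fewer than 10 of its counts. A single count of *Tgm6* in library 2 was 0.0436 CPM, with a 95% Poisson interval of 0.00110 to 0.243 CPM. Such intervals cover counting error only.

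Levels of different genes were compared per kilobase of the principal transcript. On this scale the order of the medians was *Tgm1* with 41.6 CPM per kb, *Tgm5* with 32.9, *Tgm7* with 10.2, *Tgm3* with 4.61, *Tgm2* with 0.770, *Tgm4* with 0.321 and *Tgm6* with 0.0667. *Tgm1* exceeded *Tgm5* in 8 of 12 libraries, and *Tgm5* was higher in libraries 1, 2, 6 and 9, so the libraries do not fix which of the 2 is the more abundant. The ratio of *Tgm1* to *Tgm5* per kb ran from 0.413 in the lowest library to 3.97 in the highest. *Tgm5* exceeded *Tgm7* in all 12 libraries. The next steps had exceptions: *Tgm7* was above *Tgm3* in 11 libraries but not in library 5, and *Tgm3* was above *Tgm2* in 10 but not in libraries 4 and 12. *Tgm2* exceeded *Tgm4* in 11 libraries, and *Tgm4* exceeded *Tgm6* in 9. The annotated transcript of *Tgm7* has 2151 bases and codes for a protein with a shorter amino-terminal end than its relatives, so its level per kb rests on a gene model that may be incomplete.

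*Tgm1* and *Tgm5* together held 68.2% to 88.0% of the family's level per kb. *Tgm1* alone held a median of 42.4%, ranging from 24.0% in library 6 to 67.5% in library 10. *Tgm5* ran in the opposite sense in those libraries, with its highest share of 58.1% in library 6 and its lowest of 17.0% in library 10. *Tgm7* held 4.50% to 24.9% and *Tgm3* held 0.931% to 9.73%. *Tgm6* reached 10.1% in library 5, against a median of 0.0622%, and *Tgm2* reached 7.36% in library 4, against a median of 0.755%. Summed over the 7 genes, the family's level was lowest in library 4 with 186 CPM and highest in library 8 with 394 CPM.

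**Figure D2:**
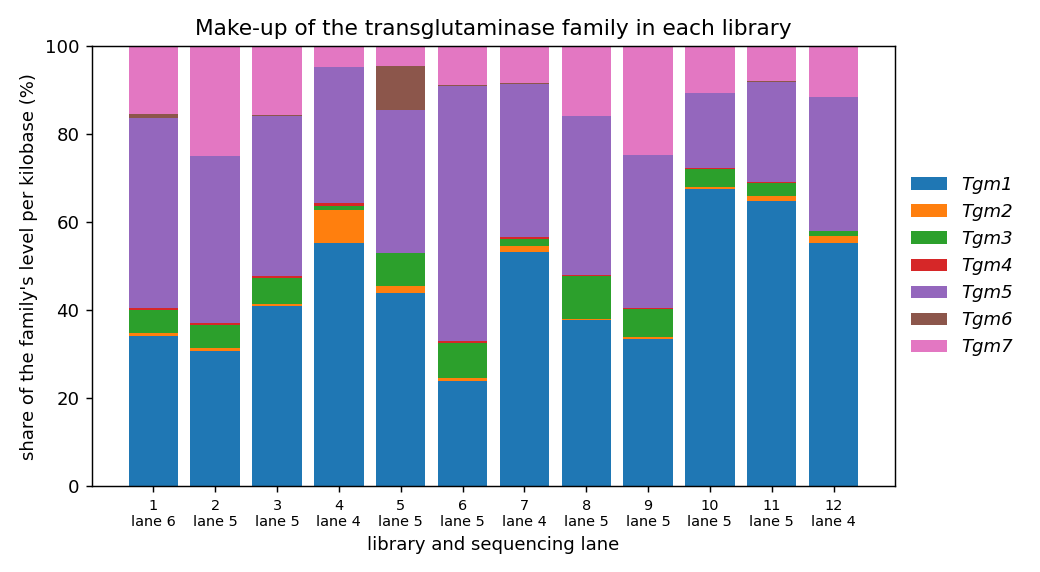
Share of each member in the family's summed level per kilobase (percent, stacked bars from 0 to 100) in libraries 1 to 12, with the sequencing lane under each library. *Tgm1* has the highest share in 8 libraries and *Tgm5* in 4, while *Tgm6* is visible in library 5 and *Tgm2* in library 4.

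The members were next set beside the proteins they cross-link and the cells that could have contributed RNA. Relations are given as Spearman rho of CPM and Pearson r of log2(CPM + 1) over the 12 libraries. They are descriptions without a test: the points are the same libraries, and values in CPM share each library's total. In all, 98 relations of a member with a summed list were computed. Relations with every single gene of the lists and between members were computed as well, and those named below are only a part of them.

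*Tgm1* varied with summed keratinocyte genes of both the cornified and the basal layers, but not with every gene of these lists. The summed level of 27 envelope substrates ran from 16285 CPM in library 6 to 47117 CPM in library 11, and its rho with *Tgm1* was 0.83 (r = 0.91; without libraries 6 and 11, rho = 0.71 and r = 0.83). Of the 24 substrates with a mean of at least 1 CPM, 9 had a rho of 0.5 or more with *Tgm1*, where 22.7% of all genes did. They were led by *Cdsn*, the corneodesmosin that holds corneocytes together, at 0.91. *Lor*, the loricrin that makes up most of the envelope, followed at 0.85, *Evpl*, the scaffold envoplakin, at 0.81, and the keratin *Krt10* at 0.80. *Lor* was 1045 CPM in library 6, 4221 CPM in the median and 6741 CPM in library 10, the libraries in which *Tgm1* was also lowest and highest. In the other direction, 5 of the 24 had a rho of -0.5 or less, where 19.0% of all genes did. Among them were the annexin *Anxa1* at -0.80, the small proline-rich *Sprr4* at -0.80 and the involucrin gene *Ivl* at -0.66. The median rho of the 24 substrates with *Tgm1* was 0.17, beside 0.15 over all genes. The substrates of the family therefore did not vary as 1 group with *Tgm1*, and abundant members such as *Krt10* weigh most in the sum. The summed basal keratinocyte markers also varied with *Tgm1*, with a rho of 0.66 and an r of 0.81 (0.42 and 0.61 without libraries 5 and 6). Of these genes, 4 of 6 had a rho of 0.5 or more, while *Krt5* had 0.48 and *Krt14* 0.10. The genes whose pattern was most like that of *Tgm1* were *Alox12b*, the lipoxygenase that acts on barrier lipids, *AA986860* and the peptide transporter *Slc15a1*, each with a rho of 0.965.

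*Tgm1* was lowest in libraries 6, 1 and 5, with 60.8, 81.2 and 82.4 CPM, and other measures set these libraries apart. Relative to each gene's median over the libraries, the log2 level of genes changed by -0.738, -0.412 and -0.802 for each 10% of GC content in these libraries, against -0.265 to 0.296 in the other 9 libraries. For each doubling of transcript length it changed by -0.250, -0.215 and -0.284, against -0.144 to 0.206. The part of these properties in the level of *Tgm1* was not tested. Over the libraries, *Tgm1* had a rho of 0.67 with the change by length (r = 0.76) and of 0.44 with the change by GC content (r = 0.80). Without libraries 5 and 6, rho was 0.47 and 0.07 and r was 0.60 in both cases.

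The levels of *Tgm3*, *Tgm5* and *Tgm7* varied together, though many other genes also varied with *Tgm7*. Of all genes, 7.63% had a rho of 0.5 or more with *Tgm3*, 9.73% with *Tgm5* and 22.4% with *Tgm7*. The rho of *Tgm3* with *Tgm5* was 0.78 (0.81 over the 8 libraries of lane 5), that of *Tgm3* with *Tgm7* was 0.64 (0.67 in lane 5), and that of *Tgm5* with *Tgm7* was 0.64 (0.43 in lane 5). The corresponding r was 0.61, 0.59 and 0.67. It was 0.44 and 0.34 for the pairs with *Tgm3* once libraries 4 and 8, the lowest and the highest for *Tgm3*, were left out, and 0.77 for *Tgm5* with *Tgm7* without libraries 6 and 8. With *Tgm1*, the same 3 genes had a rho of -0.22, -0.36 and 0.08. *Tgm5* was closer still to its neighbour *Epb42*, at 0.87 (r = 0.86; in lane 5, rho = 0.67 and r = 0.89). *Epb42* was not related to *Tgm5* alone: its rho was 0.66 with *Tgm3*, 0.64 with *Tgm4* and 0.58 with *Tgm7*. In lane 5 its rho was higher with *Tgm4*, at 0.93, than with *Tgm5*. *Epb42* was low in every library, from 0.692 to 3.36 CPM, and held 15 to 91 counts. *Epb42* is a gene of red blood cells that lies downstream of *Tgm5* on the same strand, and the part of *Tgm5* transcripts in its counts was not tested. The other neighbours, *Tgm3* and *Tgm6*, had a rho of 0.11.

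Keratin 17, a keratin of the hair follicle and of activated epidermis, followed the same 3 genes. *Krt17* ran from 1219 CPM in library 5 over a median of 3670 CPM to 11582 CPM in library 8, where *Tgm3* was also highest at 57.0 CPM and *Tgm5* stood at 134 CPM. Its rho was 0.84 with *Tgm5*, 0.64 with *Tgm3* and 0.59 with *Tgm7*. *Krt17* was the most abundant of the 4 stress keratins, whose summed level had a rho of 0.78 and an r of 0.85 with *Tgm5* (0.75 and 0.86 without libraries 3 and 8). The other stress keratins did not share this: *Krt6a* and *Krt16* had a rho of -0.31 and -0.48 with *Tgm5*. Nor was the summed level particular to these 3 members. Its rho was 0.68 and its r 0.57 with *Tgm4*, which held 2 to 53 counts, beside a rho of 0.65 with *Tgm3* and 0.58 with *Tgm7*. The suprabasal keratin *Krt1* ran the other way, with a rho of -0.83 with *Tgm5* and -0.77 with *Tgm3*. It did not stand for its list: of 9 suprabasal markers, it was the only 1 at -0.5 or less with either member. The median rho of the 9 was -0.34 with *Tgm5* and -0.25 with *Tgm3*. The basal keratins were divided: *Krt14* had a rho of -0.87 with *Tgm5* and -0.85 with *Tgm3*, while *Krt5*, the more abundant, had 0.38 and 0.34. Of 6 basal markers, 2 had -0.5 or less with each of these members. Of the envelope substrates, the filaggrin gene *Flg* had a rho of 0.70 with *Tgm7* and 0.64 with *Tgm3*. With *Tgm3*, 2 of the 24 substrates reached 0.5, where 7.63% of all genes did, and 3 had -0.5 or less, where 7.39% did. With *Tgm7*, 1 reached 0.5, where 22.4% of all genes did, and 4 had -0.5 or less, where 6.78% did. None of the 24 reached 0.5 with *Tgm5*, where 9.73% of all genes did, and 5 had -0.5 or less, where 6.93% did. Those were *Krt1*, *Lce1a1*, *Lce1b*, *Lce1c* and *Lce1m*, the last 4 being late cornified envelope genes.

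The genes most like each of these members differed. They were *AK020205*, the transcription factor gene *Creb5* and the Hedgehog receptor gene *Ptch1* for *Tgm3*, with a rho of 0.951, 0.944 and 0.923. For *Tgm5* they were the dynein gene *Dnah1* at 0.972, *Sez6l* at 0.951 and *Dram1* at 0.951. For *Tgm7* they were *Net1* at 0.979, *Mylip* at 0.965 and *Zfp235* at 0.958. Such lists take the top 3 of 14878 genes, and their members changed with the library left out.

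**Figure D3:**
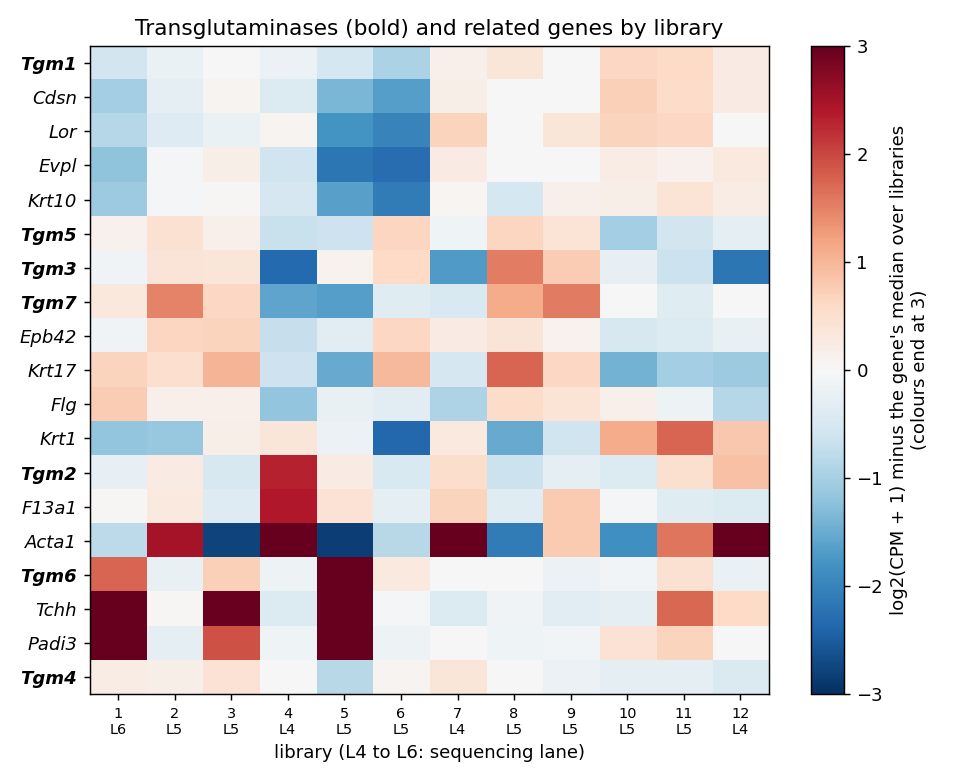
Level of the 7 transglutaminases (bold) and of related genes in each library, drawn as log2(CPM + 1) minus the gene's median over the 12 libraries, with red above and blue below the median and colours ending at 3. *Tgm1* is blue in libraries 1, 5 and 6 with *Cdsn*, *Lor*, *Evpl* and *Krt10*, *Tgm3* is blue in the 3 libraries of lane 4 (L4), and *Tgm6* is red in libraries 1, 3 and 5 with *Tchh* and *Padi3*.

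The 3 libraries of lane 4 stood apart for *Tgm3*. It was 2.95, 5.18 and 3.44 CPM in libraries 4, 7 and 12, and 11.7 to 57.0 CPM in the other 9, so the lanes did not overlap. Only 29 of 14879 genes, 0.195%, were lower in every library of lane 4 than in any other library. In plain CPM, *Tgm2* stood apart in the opposite direction, with 17.5, 4.35 and 5.78 CPM in lane 4 and 1.36 to 4.16 CPM elsewhere, as did 0.88% of genes. This gap was narrow: the 95% Poisson intervals of library 7 (3.70 to 5.07 CPM) and library 11 (3.27 to 5.22 CPM) overlap. With the TMM scaling factors, 1.08 for library 7 and 0.989 for library 11, library 7 falls below library 11. The separation of *Tgm2* therefore depends on the scaling. The other 5 members overlapped between lanes. The lane is given only by the column names, and it cannot be told apart from the animals sequenced in it. Over the 8 libraries of lane 5 alone, the rho between *Tgm2* and *Tgm3* was -0.62.

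Muscle genes moved with this contrast. The summed level of *Acta1*, *Ckm*, *Myh4* and *Des* was 435 to 594 CPM in lane 4, 5.79 to 213 CPM in lane 5 and 28.3 CPM in lane 6. Within lane 5, its rho was 0.14 and its r -0.24 with *Tgm3*, and its rho was 0.33 and its r 0.56 with *Tgm2*. Library 2, with 213 CPM of muscle markers, had 25.3 CPM of *Tgm3*, above its median. Endothelial markers were low throughout, and none of the 4 had a mean of at least 1 CPM. Their sum nevertheless had a rho of 0.85 and an r of 0.81 with *Tgm2* (0.79 and 0.83 without libraries 4 and 7, and a rho of 0.67 in lane 5). *Kdr*, the receptor for vascular endothelial growth factor, had 0.86, but at 0 to 0.508 CPM its order over the libraries is open to counting error. Of 6 dermal fibroblast markers, 4 had a rho of 0.5 or more with *Tgm2*, where 8.11% of all genes did, but their summed level had a rho of 0.28 and an r of 0.37 with it (0.01 and -0.17 without libraries 4 and 5). Of the 24 envelope substrates, 2 had a rho of 0.5 or more with *Tgm2* and 3 had a rho of -0.5 or less, where 5.11% of all genes did, led by *Flg* at -0.71. Library 4, with the highest *Tgm2*, also had the highest dermal sum and the highest *F13a1*, the factor XIII subunit of the same family that dermal macrophages express, at 34.8 CPM against a median of 5.74 CPM. The part of carried-over tissue in *Tgm2* was not tested. The genes most like *Tgm2* were *Pdzrn4* at 0.958, *Grb10* at 0.930 and the kinase gene *Dclk1* at 0.930.

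**Figure D4:**
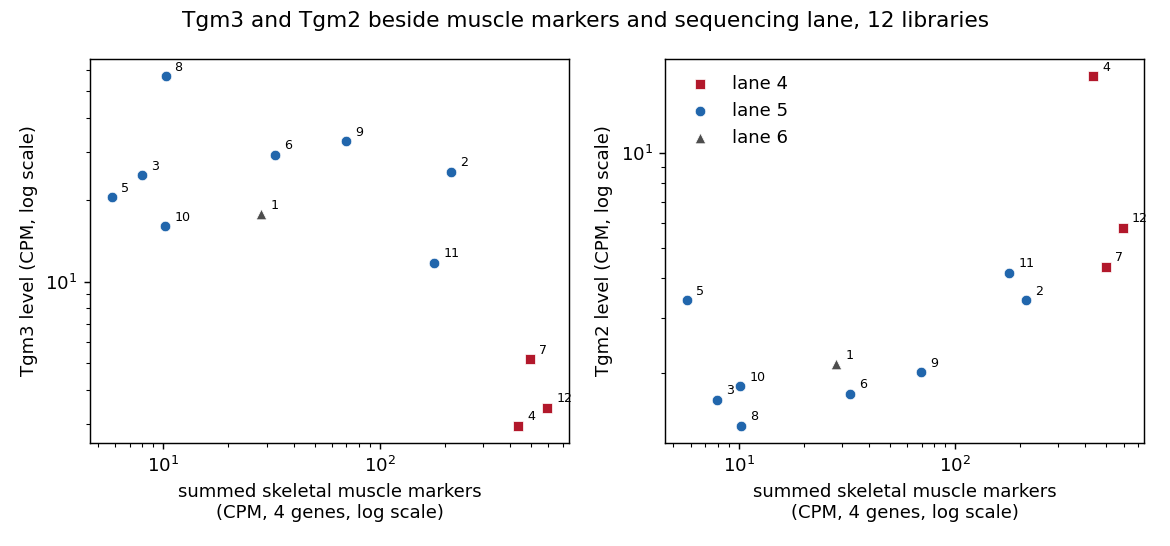
Levels of *Tgm3* (left) and *Tgm2* (right) in CPM against the summed level of 4 skeletal muscle markers in CPM, all on log axes, with 1 numbered point per library and the marker giving the sequencing lane. The 3 libraries of lane 4 have the highest muscle sums, the lowest *Tgm3* (2.95 to 5.18 CPM) and the highest *Tgm2* (4.35 to 17.5 CPM), and the 8 libraries of lane 5 span 5.79 to 213 CPM of muscle markers.

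*Tgm6* was highest in the libraries with the most hair follicle RNA. Its level was 22.0 CPM in library 5 (704 counts, 95% Poisson interval 20.4 to 23.7 CPM), 3.13 CPM in library 1 and 0.991 CPM in library 3, while the other 9 libraries held 0.0436 to 0.675 CPM. Library 5 thus stood 505-fold above library 2, with a counting interval of 90.3 to 19973. *Tchh*, the trichohyalin of the inner root sheath that transglutaminases cross-link, was 2849.6 CPM in library 5, 643 CPM in library 1, 141 CPM in library 3 and 59.1 CPM in library 11, and 12.6 to 26.5 CPM in the rest. The 4 libraries with the most *Tgm6* were thus the 4 with the most *Tchh*, in the same order. *Padi3*, a deiminase that modifies trichohyalin, was 44.0, 21.5 and 3.52 CPM in libraries 5, 1 and 3 and at most 0.899 CPM in the others.

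Of the 19 hair shaft and inner root sheath markers, 16 had a rho of 0.5 or more with *Tgm6*, where 8.08% of all genes did, and all 4 follicle substrates and partners did so as well. These counts rest on libraries 1 and 5, through which *Tgm6* and many of the markers pass the mean of 1 CPM. Over the other 10 libraries, 12 of the 19 markers kept a mean of at least 1 CPM and 2 had a rho of 0.5 or more, where 2.75% of all genes did, and neither of the 2 follicle partners that kept this mean did. *Tgm6* itself held at most 18 counts in these 10 libraries. Of the 24 envelope substrates, 6 reached 0.5 and 1, the desmoplakin gene *Dsp*, had -0.5 or less, where 23.7% of all genes did. The hair markers' summed level had a rho of 0.52 and an r of 0.94 with *Tgm6*. This rests largely on libraries 1 and 5, since without them rho was 0.16 and r was 0.63. For the summed follicle substrates and partners the values were 0.63 and 0.95, and without those libraries 0.36 and 0.84. *Prr9* and *Tchhl1*, a trichohyalin-like gene, were most like *Tgm6*, at 0.965 and 0.951, followed by *Cyp51*, a gene of sterol synthesis, at 0.909. *Tgm3*, the transglutaminase classically placed in the hair follicle, did not follow these libraries: it was 20.4 CPM in library 5 and 17.7 CPM in library 1, near its median, and its rho with *Tchh* was 0.13.

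**Figure D5:**
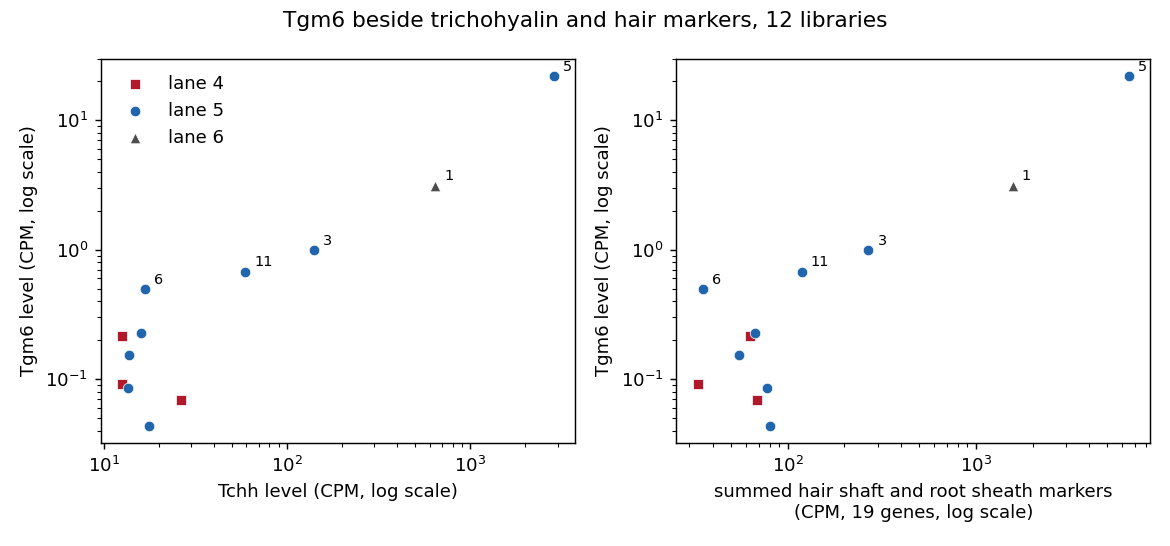
Level of *Tgm6* in CPM against *Tchh* in CPM (left) and against the summed level of 19 hair shaft and inner root sheath markers in CPM (right), on log axes, with 1 point per library, the marker giving the lane and numbers on libraries with more than 0.4 CPM of *Tgm6*. Libraries 5, 1, 3 and 11 line up in order with *Tchh*, and the other 8 lie together below 0.5 CPM of *Tgm6*.

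*Tgm4* was 0.413 to 1.54 CPM in 11 libraries and held 2 counts in library 5. Prostate markers were at or near 0: *Pbsn*, the probasin gene, was at 0 counts in 11 libraries and *Msmb* in 10, and the 3 markers summed to at most 0.773 CPM. Exons of *Tgm4* overlap those of *Zdhhc3* on the opposite strand by up to 830 bases, and *Zdhhc3* had a median of 140.4 CPM. Its rho with *Tgm4* was -0.14. Of the 24 envelope substrates, 1 had a rho of 0.5 or more with *Tgm4*, where 9.1% of all genes did, and 2 had -0.5 or less, where 4.93% did. *Tgm2* likewise overlaps *Rprd1b* by up to 370 bases, with a rho of 0.13. The library kit marks strand, but the strand setting of the counting is not given in the sources used here, so these low values of *Tgm4* and *Tgm2* remain uncertain.

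Proteases that cut the enzymes into their active form and the inhibitors of these proteases were present in every library. *Ctsd*, the cathepsin linked to processing of TGM1, had 534 to 919.6 CPM with a median of 679 CPM. *Ctsl*, the cathepsin linked to processing of TGM3, had 304 to 1016 CPM with a median of 450.4 CPM. *Cst6*, the cystatin that inhibits cathepsins and legumain, had 406 to 1725.5 CPM with a median of 860.0 CPM, while *Lgmn* itself had a median of 29.1 CPM. *Cst6* ran against *Tgm1*, with a rho of -0.71, and was highest in library 6, where *Tgm1* was lowest. *Ctsl* had a rho of 0.75 with *Tgm6* and -0.72 with *Tgm7*. It was highest in library 5, where *Tgm6* was also highest and *Tgm7* lowest. Of the 8 genes, 2 had a rho of -0.5 or less with *Tgm1*, where 19.0% of all genes did, and 1, *Capn2*, had 0.5 or more, where 22.7% did. The list was divided with *Tgm6*: 3 had 0.5 or more, where 8.08% of all genes did, and 2 had -0.5 or less, where 23.7% did. With *Tgm7*, 0 of the 8 had 0.5 or more, where 22.4% of all genes did, and 3 had -0.5 or less, where 6.78% did.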

How the data were processed

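The authors isolated polyA RNA, prepared libraries with the NEBNext Ultra II Directional kit and sequenced single reads of 51 bases. They trimmed reads for quality and quantified genes with RSEM and Bowtie2 against mm10, as far as the paper and the submitters' processing notes state. The values used are the deposited gene table of expected counts (estimated counts, given as whole numbers). The annotation, tool versions and strand setting are not given in the sources used here. All 12 value columns matched no sample label, so no test was run and each library stands alone. No genotype was inferred from column order or counts.

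CPM was computed over each library's total of 17788775 to 37042852 counts. CPM per kb used the principal transcript in GENCODE M21 (GRCm38). Spearman rho was computed on CPM and Pearson r on log2(CPM + 1). Shares of all genes, counts of list genes at a rho limit and the most alike genes used genes with a mean of at least 1 CPM. Relations with summed lists and with single named genes had no such limit. For relations described in full, values without the 2 libraries farthest from the median of the measure on the x axis are given. Poisson intervals of 95% cover counting error only. The changes by GC content and length were slopes fitted together for each library over 13552 genes with an annotated transcript, 91.1% of those kept. The search for the genes most like a member was tested only on simulated data, where some genes followed *Tgm5* closely and the rest varied independently. Many genes vary together in these data, so that test does not show how reliable the lists of most alike genes are. Scaling factors came from edgeR 4.0.16 (TMM) and DESeq2 1.42.0 in R 4.3.3. Python 3.11.15, pandas 2.3.3, scipy 1.17.1, Biopython 1.88 and matplotlib 3.10.9 were used.

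The genes named are the 7 members, up to 4 genes of highest median in each list plus substrates, proteases and partners with a direct role, and the 3 genes of highest rho with each member, ties going to the higher r. *Tgm4* has no such genes because its mean was below 1 CPM. *Cd207*, *Kdr* and *Krt16* were named beside their lists. The members, lists and rules were chosen with earlier results of these data known. Alternatives were other scalings, other gene lengths, a total without the 100 most abundant genes, a total over kept genes, and each library left out. The authors' own comparisons were not used.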

Additional observations from a re-analysis of the deposited data

How the results depend on the processing

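The genotype comparison planned for each member (edgeR, with DESeq2, no filter, a replicate block and each replicate left out as alternatives) was not run, because no column name matched a sample label. No paired analysis was possible because the columns carry no replicate number and no result comes from a test. The median level of each member and the order per kb kept within the spread between libraries, or in place, under every alternative run. With the coding length in place of the transcript, the median share of *Tgm3* moved from 5.15% to 8.33%. The ratio of the highest to the lowest library depended on single libraries: with each left out in turn it ran from 4.24 (without library 4) to 12.8 for *Tgm2*, from 11.1 (without library 8) to 19.3 for *Tgm3*, from 3.73 (without library 5) to 24.6 for *Tgm4*, and from 71.8 (without library 5; 320 without library 2) to 505 for *Tgm6*. It stayed at 2.24 to 2.99 for *Tgm1* and 2.52 to 3.21 for *Tgm5*. Of 84 alternatives for the 3 genes most like a member, 70 changed at least 1 gene. Of 120 alternatives for relations with summed lists, 21 crossed a rho of 0.5 in size and none reversed a relation beyond that size. Without libraries 1 and 5, the hair markers with a rho of 0.5 or more with *Tgm6* fell in number from 16 to 2. That alternative, lanes 5 and 6 alone, and leaving out libraries 1, 5 and 6 were chosen after seeing the data. Depth limits *Tgm6* and *Tgm4* most: 7 libraries held fewer than 10 counts of *Tgm6*.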

Other observations

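Resident immune cells of the epidermis were also set beside the family. The Langerhans cell gene *Cd207*, singled out after its values were seen, had a rho of -0.91 with *Tgm1* over the 12 libraries. The other immune markers were divided: with *Tgm1*, *Cd3e* had a rho of 0.50, *Cd74* 0.24, *Trdc* -0.01 and *Ptprc* -0.52, and the sum of all 5 had 0.21. The summed level of 5 immune cell markers ran from 245 CPM in library 5 to 835 CPM in library 2. Its rho with *Tgm6* was -0.73 (r = -0.74; without libraries 2 and 5, rho = -0.54 and r = -0.51). With *Tgm7* the rho was 0.41 over all libraries and 0.93 over the 8 of lane 5, and without libraries 2 and 5 it was -0.01. *Cd74*, with a median of 433 CPM, weighs most in this sum. Over all libraries, 0 of the 5 markers had a rho of 0.5 or more with *Tgm7*, where 22.4% of all genes did, and their median rho was 0.13. With *Tgm6*, 2 of the 5 had -0.5 or less, where 23.7% of all genes did.

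Summed melanocyte markers were highest in libraries 5 and 1, with 209 and 115 CPM against a median of 29.8 CPM, the libraries with the most *Tgm6*. Their rho with *Tgm6* was 0.59 (r = 0.80), and without these libraries it was 0.28 (r = 0.11). These values are descriptions without a test.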
